A study of Mus musculus with 9 samples.

Results

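Interferon-stimulated genes are the genes that cells switch on when they sense interferon. A list of 39 of them was followed in mouse hearts under pressure load. Members were chosen by symbol from textbook roles, with earlier results of these data known. Shares set beside those of all genes therefore describe the list and do not test it. Of the 39, 37 had a probe set among the 20239 named genes of the arrays. Isg15 and Ifi44 had none in the annotation used and were not analysed here. Of the 37, 33 passed the filter on low values and were tested, and 32 of these lay above the filter value of 5.66 (log2) on all 9 arrays. The other 4, Dhx58, Oas1a, Mx1 and Mx2, lay between 5.18 and 5.66 on every array, close to the lowest value of the table (5.03), and were not tested.

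The arrays came from 9 whole hearts of male C57BL/6 mice, in 3 groups of 3. The first group, TAC-HDAC4-NT, underwent transverse aortic constriction (TAC), a narrowing of the aorta that makes the heart pump against raised pressure, and carried amino acids 1 to 201 of histone deacetylase 4 (HDAC4), an amino-terminal fragment called HDAC4-NT here. The second, TAC-luciferase, underwent TAC and carried luciferase, a protein foreign to the mouse. The third, sham-luciferase, underwent sham surgery and carried luciferase. In each group the cargo came from an adeno-associated virus with a myosin light chain promoter, which is active in heart muscle, given at 8 weeks of age. Surgery followed after 4 weeks, and hearts were taken 4 weeks after surgery. No heart was free of virus, and no sham heart carried HDAC4-NT. The level of the members without a virus, and that of HDAC4-NT without load, are therefore not given by these data.

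Interferons are secreted proteins that warn cells of infection and of misplaced nucleic acid. Type I interferons bind the Ifnar1-Ifnar2 receptor, whose Janus kinases activate a complex of STAT proteins with Irf9 that binds the interferon-stimulated response element. Interferon gamma binds Ifngr1-Ifngr2 and acts on the gamma-activated site. The products sense viral RNA, block viral replication, cut proteins for antigen display and also raise the sensors and transcription factors of the pathway itself. In injured hearts, induced genes of this kind are known from macrophages, and endothelial cells and cardiomyocytes can respond as well.

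The promoters are shown because the list is defined by its inducing signal. RefSeq promoter windows (build GRCm38.p6, 250 bases before to 50 bases after a gene's start) were listed for 26 of the 37 genes with a probe set and for 11 of the 13 that passed the test in any comparison. They were searched on both strands for the core of the response element, GAAANN followed directly by GAAA (TTTCNN followed by TTTC on the other strand), and for TTCNNNGAA, the gamma-activated site, which reads the same on both strands. At least 1 match to the first motif was found for 11 of 26 genes (42.3%), against 1079 of all 27025 genes with a window (3.99%). The second motif was found for 7 of 26 (26.9%), against 9.55% of all genes. Among the genes that passed the test, 5 of 11 held the first motif, and among those that did not, 6 of 15 did. Printed 5′ to 3′ on the gene's strand are those of the 13 that held it, ordered by size of change, with the matches in capitals.
Ifit3, chr19:34583279-34583578, plus strand: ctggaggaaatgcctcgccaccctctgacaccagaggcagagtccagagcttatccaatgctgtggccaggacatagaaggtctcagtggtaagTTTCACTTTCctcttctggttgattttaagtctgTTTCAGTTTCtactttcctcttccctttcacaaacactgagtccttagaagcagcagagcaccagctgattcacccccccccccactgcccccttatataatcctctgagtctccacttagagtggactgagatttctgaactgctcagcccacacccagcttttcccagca
Ifit1, chr19:34640639-34640938, plus strand: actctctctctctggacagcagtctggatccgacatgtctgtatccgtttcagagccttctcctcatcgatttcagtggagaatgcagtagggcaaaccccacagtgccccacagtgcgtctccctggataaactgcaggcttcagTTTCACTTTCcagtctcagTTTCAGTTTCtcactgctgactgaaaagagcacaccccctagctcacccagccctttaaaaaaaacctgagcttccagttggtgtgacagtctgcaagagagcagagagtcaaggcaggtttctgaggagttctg
Gbp3, chr3:142559794-142560093, plus strand: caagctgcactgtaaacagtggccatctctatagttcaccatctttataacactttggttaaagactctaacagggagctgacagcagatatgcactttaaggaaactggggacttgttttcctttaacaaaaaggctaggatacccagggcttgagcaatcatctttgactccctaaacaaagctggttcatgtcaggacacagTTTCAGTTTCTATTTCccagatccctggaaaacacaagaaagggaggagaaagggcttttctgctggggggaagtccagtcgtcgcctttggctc
Ddx58, chr4:40239776-40240075, minus strand: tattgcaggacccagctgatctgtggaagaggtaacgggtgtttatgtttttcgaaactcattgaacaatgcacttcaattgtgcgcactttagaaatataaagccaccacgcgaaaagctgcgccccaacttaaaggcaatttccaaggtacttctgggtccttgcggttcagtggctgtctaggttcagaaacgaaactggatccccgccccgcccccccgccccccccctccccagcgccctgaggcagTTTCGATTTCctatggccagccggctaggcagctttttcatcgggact
Ifih1, chr2:62646206-62646505, minus strand: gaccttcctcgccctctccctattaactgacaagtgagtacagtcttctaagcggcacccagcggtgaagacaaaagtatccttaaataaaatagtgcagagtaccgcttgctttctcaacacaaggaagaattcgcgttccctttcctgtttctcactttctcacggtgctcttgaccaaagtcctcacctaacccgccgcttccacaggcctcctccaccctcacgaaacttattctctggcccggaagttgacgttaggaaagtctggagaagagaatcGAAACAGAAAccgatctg
The Ifit3 window held matches from bases 95 and 129, and Ifit1 from bases 147 and 166, in both genes as the same pair of sequences, TTTCACTTTC and TTTCAGTTTC. In Gbp3 the matches from bases 206 and 212 overlapped. Ddx58 had its match from base 253 and Ifih1 from base 283, both after the annotated start. The windows of Tap1 (chr17:34187306-34187605, plus strand) and Psmb9 (chr17:34187281-34187580, minus strand) overlapped head to head and held neither motif. Irf1 (chr11:53769764-53770063, plus strand) was the only one of the 11 called genes with a window to hold the gamma-activated site. A match is a string of letters and no shown binding site.

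In TAC-HDAC4-NT hearts, 13 of the 33 tested genes (39.4%) were higher than in sham-luciferase hearts at an adjusted p under 0.05, where 10.5% of all 12597 genes tested were higher. None was lower, where 12.3% of all genes were (22.8% in either direction). The genes that rose were Ifit3, Oasl2, Irf7, Tap1, Ifit1, Usp18, Gbp3, Ddx58, Irf9, Psmb9, Ifih1, Rtp4 and Irf1. The increases ran from 0.21 to 1.25 on the log2 scale, that is 1.15-fold for Irf1 to 2.39-fold for Ifit3. The median difference of the 33 was 0.31, against -0.01 over all genes tested, and 31 of them were above 0 (93.9%), against 46.3% of all genes. For 26 of them every TAC-HDAC4-NT heart lay above every sham heart, as for 18.3% of all genes. This comparison changes both the surgery and the cargo, and their parts in it cannot be told apart. Below, differences given as with HDAC4-NT are TAC-HDAC4-NT against sham-luciferase. Those given as with luciferase are TAC-luciferase against sham-luciferase.

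In TAC-luciferase hearts, 5 of the 33 genes (15.2%) were higher than in sham-luciferase hearts, where 11.2% of all genes were, so the share lay close to the background. These were Irf7, Ifit3, Oasl2, Ifit1 and Ddx58, with increases of 0.37 to 0.80 (log2). None was lower in TAC-luciferase, beside 14.9% of all genes (26.1% in either direction). The median difference was 0.19, against -0.01 over all genes, and 31 of the 33 were above 0, against 46.5% of all genes. Here 11 of the 33 lay above every sham heart in all TAC-luciferase hearts, against 15.9% of all genes. All 5 were also among the 13. Both comparisons share the sham hearts, and a call in TAC-HDAC4-NT but not in TAC-luciferase, as for 8 genes, does not show that the loaded groups differ. That difference was tested directly.

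The direct test, TAC-HDAC4-NT against TAC-luciferase, called 0 of the 33 genes higher and 0 lower in limma. Over all genes tested, 0.143% were higher and 0.111% lower, 0.254% together. At an unadjusted p under 0.05 there were 7 of the 33 members (21.2%), against 14.3% of all genes. The median difference was 0.13, against 0.00 over all genes, and 26 of the 33 differences were above 0 (78.8%), against 52.1% of all genes. For 4 members, Ifih1, Rsad2, Cmpk2 and Parp14, every TAC-HDAC4-NT heart lay above every TAC-luciferase heart, and for Ifi35 every one lay below. Such a separation above was seen in 11.6% of all genes and below in 8.80%. Without TAC-luciferase heart 1, 8 members were called higher (24.2%), against 2.38% of all genes. That heart was high in most of these genes, so leaving it out raises the difference by that choice alone. Leaving out any other single array gave no call among the members. In whole hearts, fewer cells of a type and less RNA per cell cannot be told apart.

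**Figure D1:**
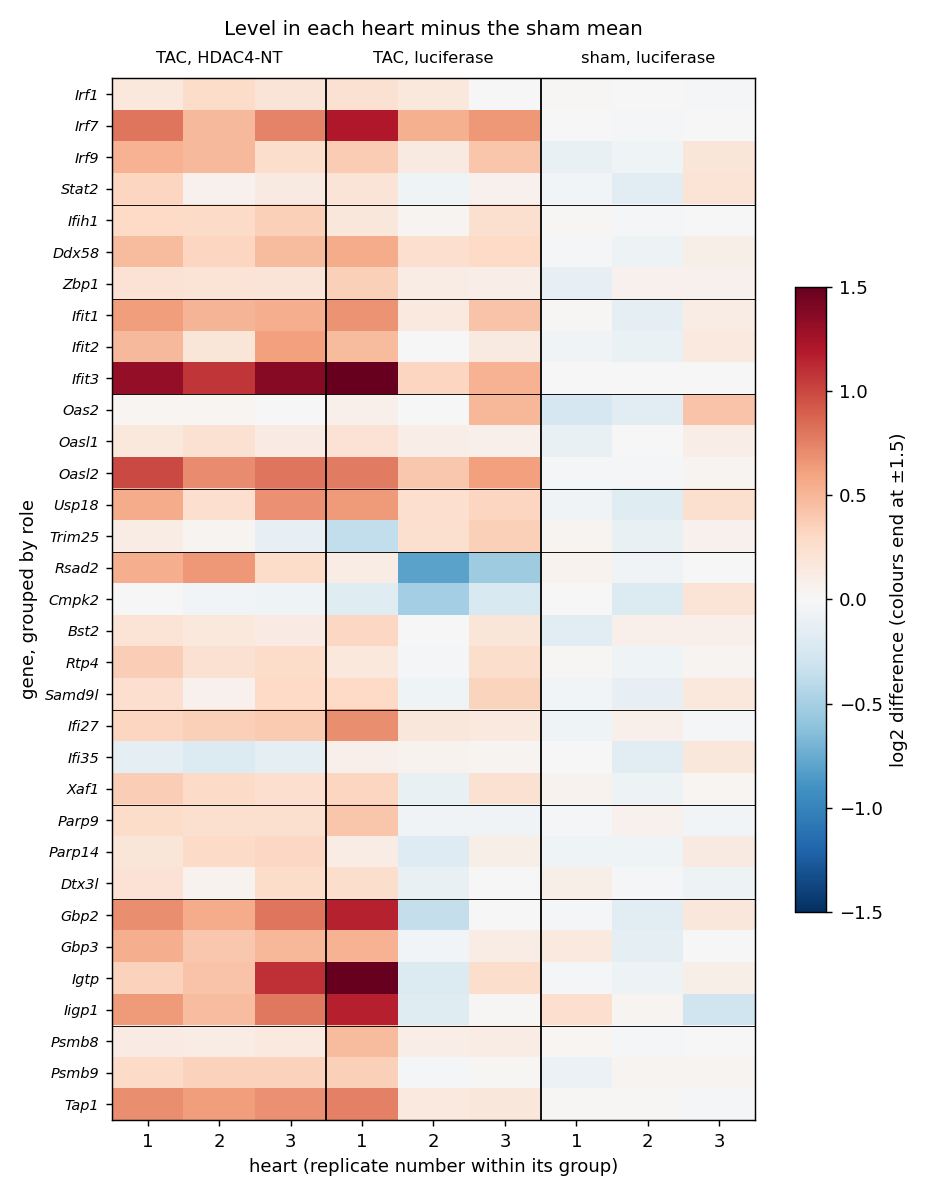
Difference of each tested interferon-stimulated gene from its sham-luciferase mean (log2), 1 column per heart, with genes grouped by role, red above and blue below the sham mean and the colour scale ending at 1.5 either way. TAC-luciferase heart 1 had the highest median difference of the 9 hearts (0.36) and TAC-luciferase heart 2 the lowest of the 6 TAC hearts (0.01).

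Of the 4 transcription factors of the list, 3 rose in TAC-HDAC4-NT hearts and 1 in TAC-luciferase hearts, each against sham. Irf7, which amplifies type I interferon production and is itself induced, read 7.08, 6.77 and 7.02 in TAC-HDAC4-NT hearts, 7.48, 6.81 and 6.93 in TAC-luciferase hearts and 6.29, 6.26 and 6.29 in sham hearts. All 6 TAC hearts lay above all sham hearts, and the sham hearts were almost equal. Irf7 rose by 0.68 ± 0.16 (log2, SE) with HDAC4-NT (adjusted p = 0.0123) and by 0.80 ± 0.16 with luciferase (adjusted p = 0.00532). The first call was lost without TAC-HDAC4-NT heart 1 (adjusted p = 0.052). Irf9 supplies the DNA-binding part of the STAT complex. Its levels were 7.44, 7.41 and 7.18 in TAC-HDAC4-NT hearts, 7.30, 7.05 and 7.34 in TAC-luciferase hearts and 6.81, 6.85 and 7.10 in sham hearts. It rose 1.34-fold with HDAC4-NT (adjusted p = 0.0205), a call lost without any 1 of 4 arrays, while with luciferase TAC heart 2 overlapped a sham heart and the difference was 0.31 (adjusted p = 0.0637). Irf1, an early regulator of interferon gamma targets, read 6.58, 6.70 and 6.62 in TAC-HDAC4-NT hearts, 6.65, 6.59 and 6.43 in TAC-luciferase hearts and 6.45, 6.43 and 6.40 in sham hearts. Its increase with HDAC4-NT was small, 0.21 (adjusted p = 0.0427), and was lost without any 1 of 7 arrays. Stat2, a STAT protein of the type I complex, did not pass, at 0.17 with HDAC4-NT and 0.06 with luciferase.

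Of the 3 tested sensors of foreign nucleic acid, 2 rose in TAC-HDAC4-NT hearts and 1 in TAC-luciferase hearts, each against sham. Ddx58 (RIG-I), which recognises RNA ends, measured 7.59, 7.44 and 7.59 in TAC-HDAC4-NT hearts, 7.67, 7.37 and 7.41 in TAC-luciferase hearts and 7.10, 7.04 and 7.21 in sham hearts. Every TAC heart was above every sham heart, and Ddx58 rose by 0.43 ± 0.09 with HDAC4-NT (adjusted p = 0.00728) and by 0.37 ± 0.09 with luciferase (adjusted p = 0.0137). Ifih1 (MDA5), which binds long double-stranded RNA, had 6.70, 6.69 and 6.76 in TAC-HDAC4-NT hearts, 6.58, 6.45 and 6.65 in TAC-luciferase hearts and 6.43, 6.38 and 6.41 in sham hearts. The 3 groups did not overlap, in that order. Ifih1 rose by 0.31 ± 0.06 with HDAC4-NT (adjusted p = 0.00466), its difference with luciferase was 0.15 (adjusted p = 0.0853), and the direct difference between the loaded groups was 0.16 (adjusted p = 0.255). Zbp1, a sensor of left-handed nucleic acid, was the tested member with values below the filter value, and its differences of 0.20 with HDAC4-NT and 0.19 with luciferase did not pass. Dhx58, the regulator of this sensor family, was not tested.

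The IFIT proteins, which bind viral RNA and block its translation, held the widest change of the list. Ifit3 read 8.14, 7.90 and 8.19 in TAC-HDAC4-NT hearts, 8.33, 7.15 and 7.34 in TAC-luciferase hearts and 6.83, 6.82 and 6.82 in sham hearts. The sham hearts were almost equal (SD 0.01), the TAC-HDAC4-NT hearts lay together, and TAC-luciferase heart 1 lay above them all. Ifit3 rose by 1.25 ± 0.25 with HDAC4-NT (2.39-fold, adjusted p = 0.00641) and by 0.78 ± 0.25 with luciferase (1.72-fold, adjusted p = 0.0469). Without TAC-luciferase heart 1 the second value was 0.42 (adjusted p = 0.0102), and leaving out any 1 of 6 other arrays took the call away, with an adjusted p as high as 0.108. Ifit1 measured 6.84, 6.73 and 6.76 in TAC-HDAC4-NT hearts, 6.89, 6.36 and 6.65 in TAC-luciferase hearts and 6.24, 6.08 and 6.33 in sham hearts. TAC-luciferase heart 2 was only just above the highest sham heart. Ifit1 rose by 0.56 ± 0.12 with HDAC4-NT (adjusted p = 0.00892) and by 0.42 ± 0.12 with luciferase (adjusted p = 0.031). The second call was lost when any 1 of 4 arrays was left out, with an adjusted p as high as 0.0979. Ifit2 did not pass, at 0.43 with HDAC4-NT (adjusted p = 0.0559) and 0.21 with luciferase. Ifit3 and Ifit1 have close relatives between them on the chromosome (Ifit3b and Ifit1bl2). The sources used here do not say where the probes lie. Signal from such copies therefore cannot be told apart.

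**Figure D2:**
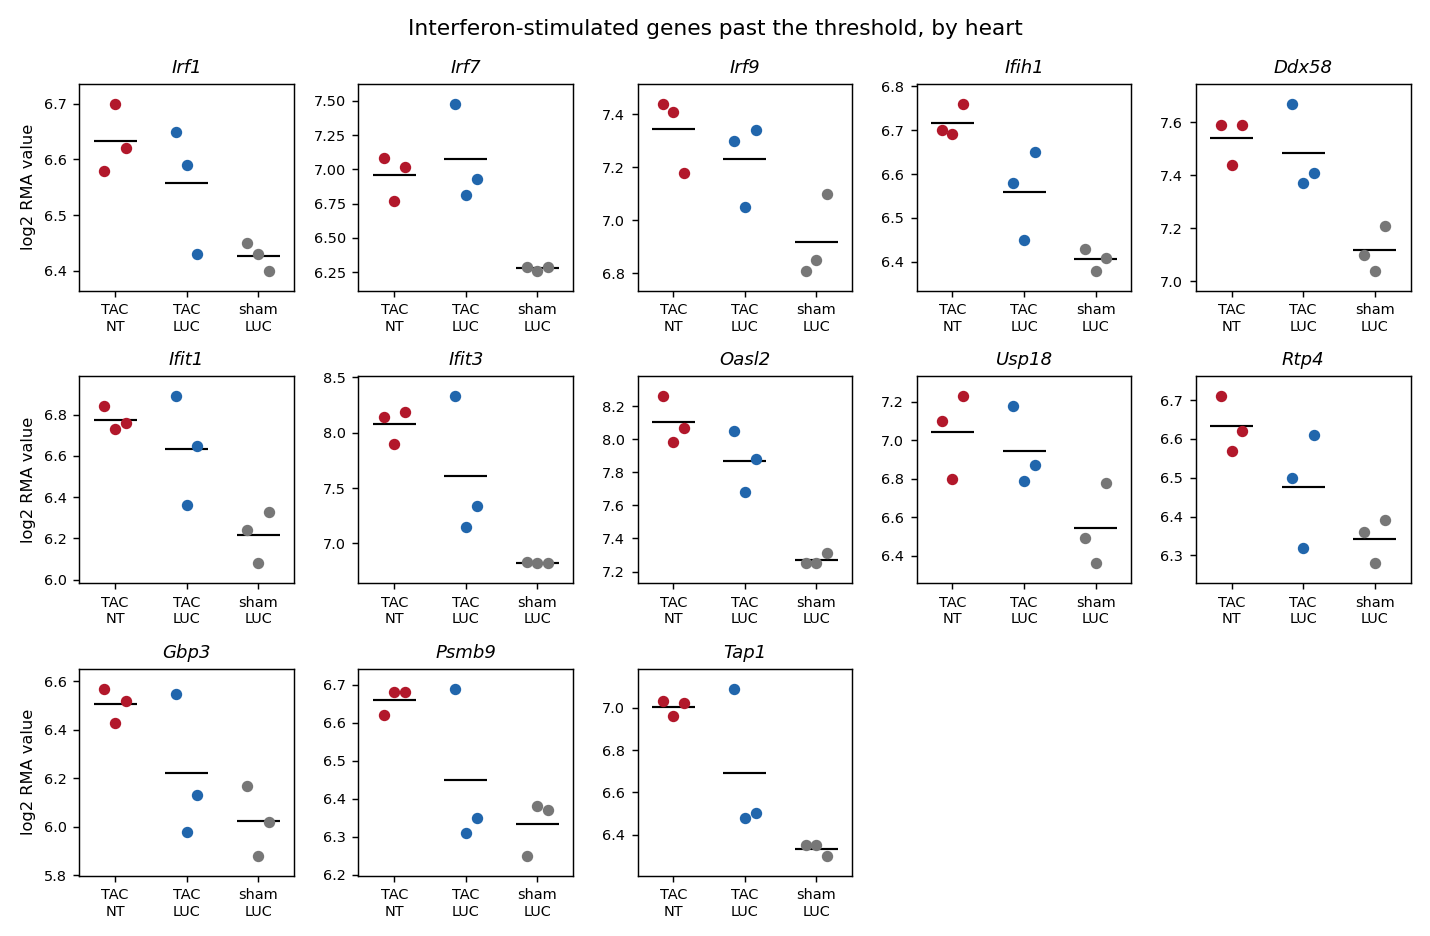
Log2 level of each of the 13 interferon-stimulated genes called against sham, 1 point per heart with the group mean as a line, in TAC-HDAC4-NT (TAC NT), TAC-luciferase (TAC LUC) and sham-luciferase (sham LUC) hearts; each panel has its own axis, which does not start at 0. For Ifit3 the 3 sham hearts sit at 6.82 to 6.83, the TAC-HDAC4-NT hearts at 7.90 to 8.19, and the TAC-luciferase hearts spread from 7.15 to 8.33.

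The oligoadenylate synthetase family makes the short adenylate chains that activate an RNA-cutting enzyme. Oasl2, a family member, had the lowest adjusted p of the list. Its levels were 8.26, 7.98 and 8.07 in TAC-HDAC4-NT hearts, 8.05, 7.68 and 7.88 in TAC-luciferase hearts and 7.25, 7.25 and 7.31 in sham hearts. All TAC hearts stood clear of all sham hearts, and the loaded groups overlapped. Oasl2 rose by 0.84 ± 0.10 with HDAC4-NT (1.79-fold, adjusted p = 0.00039) and by 0.60 ± 0.10 with luciferase (1.52-fold, adjusted p = 0.00216). Oas2, another family member, showed no such order. It read 6.87, 6.87 and 6.83 in TAC-HDAC4-NT hearts, 6.91, 6.84 and 7.33 in TAC-luciferase hearts and 6.58, 6.67 and 7.26 in sham hearts, where heart 3 of both luciferase groups was high. Oasl1, the neighbour of Oasl2 on the chromosome, did not pass, at 0.17 with HDAC4-NT and 0.13 with luciferase, and Oas1a was not tested.

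Usp18 removes the ubiquitin-like protein Isg15 from its targets and dampens signalling at the type I receptor. It measured 7.10, 6.80 and 7.23 in TAC-HDAC4-NT hearts, 7.18, 6.79 and 6.87 in TAC-luciferase hearts and 6.49, 6.36 and 6.78 in sham hearts. The loaded groups covered nearly the same range, and heart 2 of each was only just above the highest sham heart. Usp18 rose by 0.50 ± 0.14 with HDAC4-NT (adjusted p = 0.0347), a call lost without any 1 of 4 arrays, and its difference with luciferase was 0.41 (adjusted p = 0.0688). Trim25, a ubiquitin ligase that activates Ddx58, ran otherwise. It read 7.34, 7.27 and 7.11 in TAC-HDAC4-NT hearts, 6.86, 7.47 and 7.59 in TAC-luciferase hearts and 7.27, 7.12 and 7.30 in sham hearts, so that TAC-luciferase heart 1 was the lowest of the 9.

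Of the 5 tested antiviral effectors only Rtp4 passed, and Rsad2 had the largest difference between the loaded groups. Rtp4, a chaperone of receptors at the cell surface that also restrains viral replication, had 6.71, 6.57 and 6.62 in TAC-HDAC4-NT hearts, 6.50, 6.32 and 6.61 in TAC-luciferase hearts and 6.36, 6.28 and 6.39 in sham hearts. It rose by 0.29 ± 0.08 with HDAC4-NT (adjusted p = 0.0248), a call lost without any 1 of 4 arrays, and its difference with luciferase was 0.13 (adjusted p = 0.248). Rsad2 (viperin) makes a nucleotide that stops viral RNA synthesis. Its levels were 7.92, 8.02 and 7.64 in TAC-HDAC4-NT hearts, 7.48, 6.57 and 6.84 in TAC-luciferase hearts and 7.42, 7.32 and 7.37 in sham hearts. TAC-HDAC4-NT hearts were the highest, and TAC-luciferase hearts 2 and 3 lay below every sham heart. The difference of TAC-HDAC4-NT from TAC-luciferase was 0.89 ± 0.20 (1.86-fold, adjusted p = 0.084), that from sham 0.49 (adjusted p = 0.111), and that of TAC-luciferase from sham -0.41 (adjusted p = 0.168), so none passed.

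Cmpk2, a mitochondrial nucleotide kinase, is the chromosomal neighbour of Rsad2, and was chosen for its values after they were seen. It read 6.55, 6.50 and 6.48 in TAC-HDAC4-NT hearts, 6.36, 6.03 and 6.32 in TAC-luciferase hearts and 6.54, 6.34 and 6.75 in sham hearts. Like Rsad2 it was lowest in TAC-luciferase heart 2, but TAC-HDAC4-NT hearts lay within the range of the sham hearts. Its differences were 0.27 between the loaded groups (adjusted p = 0.306) and -0.30 for TAC-luciferase against sham (adjusted p = 0.0766). Bst2, which tethers virus particles to the cell, and Samd9l, an antiviral translation inhibitor, did not pass in any comparison. Bst2 differed from sham by 0.16 with HDAC4-NT and by 0.17 with luciferase, and Samd9l by 0.21 and by 0.19. The antiviral GTPases Mx1 and Mx2 stayed at 5.18 to 5.40 on all arrays.

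Among the other induced genes none passed. Ifi27, a small membrane protein, read 7.30, 7.34 and 7.37 in TAC-HDAC4-NT hearts, 7.68, 7.15 and 7.13 in TAC-luciferase hearts and 6.92, 7.06 and 6.96 in sham hearts. Every TAC heart exceeded every sham heart, with differences of 0.36 with HDAC4-NT (adjusted p = 0.0794) and 0.34 with luciferase (adjusted p = 0.0841). Ifi35, which regulates sensor signalling, went against the list, at 6.41, 6.35 and 6.42 in TAC-HDAC4-NT hearts, 6.63, 6.60 and 6.59 in TAC-luciferase hearts and 6.55, 6.38 and 6.72 in sham hearts. Its difference between the loaded groups was -0.21 (adjusted p = 0.257). Xaf1, a promoter of cell death, differed from sham by 0.30 with HDAC4-NT (adjusted p = 0.0595) and by 0.15 with luciferase.

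Dtx3l, Parp9 and Parp14 lie next to each other on the chromosome, and the first and second form a complex that modifies histones and viral proteins. Parp9 had 6.96, 6.92 and 6.92 in TAC-HDAC4-NT hearts, 7.10, 6.63 and 6.63 in TAC-luciferase hearts and 6.66, 6.74 and 6.64 in sham hearts. Dtx3l had 7.64, 7.48 and 7.70 in TAC-HDAC4-NT hearts, 7.69, 7.31 and 7.42 in TAC-luciferase hearts and 7.52, 7.41 and 7.35 in sham hearts. In both genes TAC-luciferase heart 1 lay above hearts 2 and 3, within or above the TAC-HDAC4-NT range, while heart 2 lay below every sham heart. The differences from sham were 0.25 for Parp9 and 0.18 for Dtx3l with HDAC4-NT, and 0.10 and 0.05 with luciferase. Parp14, a relative that acts on STAT signalling, differed from sham by 0.26 with HDAC4-NT (adjusted p = 0.0677) and by 0.00 with luciferase.

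The interferon-inducible GTPases attack the membranes of microbes inside the cell, and in mouse they are strong targets of interferon gamma. All 4 lay above sham in every TAC-HDAC4-NT heart, but only Gbp3 passed. Gbp3 read 6.57, 6.43 and 6.52 in TAC-HDAC4-NT hearts, 6.55, 5.98 and 6.13 in TAC-luciferase hearts and 6.17, 5.88 and 6.02 in sham hearts. It rose by 0.49 ± 0.13 with HDAC4-NT (adjusted p = 0.0283), a call lost without any 1 of 5 arrays, and its difference with luciferase was 0.20 (adjusted p = 0.338). Iigp1, which disrupts the vacuoles of parasites, measured 7.61, 7.43 and 7.76 in TAC-HDAC4-NT hearts, 8.13, 6.79 and 6.98 in TAC-luciferase hearts and 7.22, 7.01 and 6.67 in sham hearts. Gbp2 and Igtp were picked out after their values were seen, for their spread. Gbp2 read 7.48, 7.34 and 7.59 in TAC-HDAC4-NT hearts, 7.94, 6.43 and 6.79 in TAC-luciferase hearts and 6.77, 6.63 and 6.95 in sham hearts. Igtp read 6.55, 6.63 and 7.30 in TAC-HDAC4-NT hearts, 8.50, 6.00 and 6.47 in TAC-luciferase hearts and 6.19, 6.13 and 6.30 in sham hearts. In all 4 GTPases TAC-luciferase heart 1 was far above hearts 2 and 3, and in Gbp2 and Igtp heart 2 lay below every sham heart. The differences of TAC-HDAC4-NT from sham were 0.69 ± 0.31 for Gbp2 (adjusted p = 0.156), 0.64 ± 0.31 for Iigp1 (adjusted p = 0.181) and 0.62 ± 0.53 for Igtp (adjusted p = 0.472). Each standard error pools the spread of all 3 groups, TAC-luciferase included. The SD in TAC-HDAC4-NT, TAC-luciferase and sham hearts was 0.13, 0.79 and 0.16 for Gbp2 and 0.41, 1.33 and 0.09 for Igtp. Without TAC-luciferase heart 1 these differences were unchanged and all called in limma (adjusted p = 0.00263, 0.0102 and 0.044, in order). In that setting 12.1% of all genes were called higher.

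Genes of antigen processing supply peptides to MHC class I. Tap1, a subunit of the peptide transporter, had 7.03, 6.96 and 7.02 in TAC-HDAC4-NT hearts, 7.09, 6.48 and 6.50 in TAC-luciferase hearts and 6.35, 6.35 and 6.30 in sham hearts. TAC hearts and sham hearts did not overlap, and TAC-luciferase heart 1 was again above hearts 2 and 3 and level with the TAC-HDAC4-NT hearts. Tap1 rose by 0.67 ± 0.14 with HDAC4-NT (1.59-fold, adjusted p = 0.00764), and its difference with luciferase was 0.36 (adjusted p = 0.0888). Psmb9, an immunoproteasome subunit that shares its promoter region with Tap1, read 6.62, 6.68 and 6.68 in TAC-HDAC4-NT hearts, 6.69, 6.31 and 6.35 in TAC-luciferase hearts and 6.25, 6.38 and 6.37 in sham hearts. It rose by 0.33 ± 0.09 with HDAC4-NT (adjusted p = 0.0312), a call lost without any 1 of 6 arrays, and its difference with luciferase was 0.12 (adjusted p = 0.407). Psmb8, the subunit on the other side of Tap1, did not pass, at 0.13 with HDAC4-NT and 0.23 with luciferase.

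**Figure D3:**
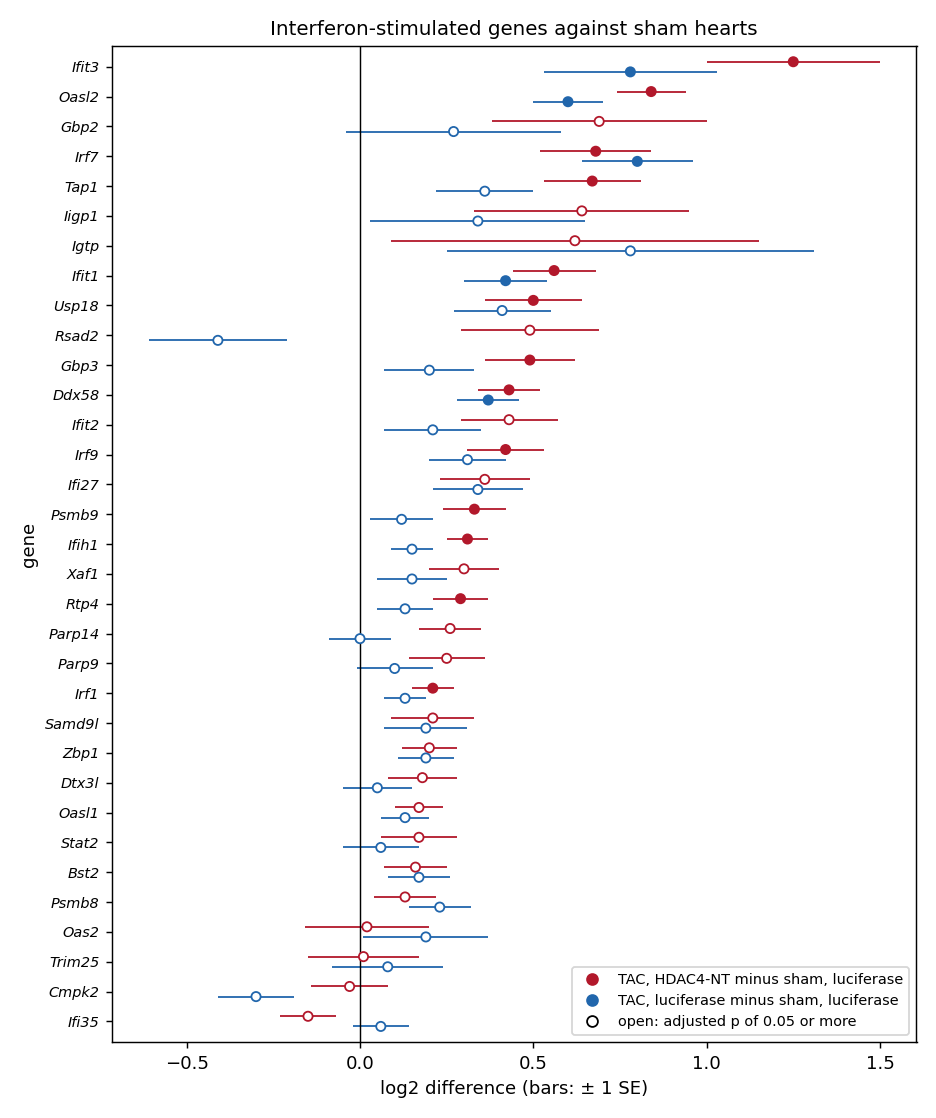
Log2 difference from sham-luciferase with its standard error for each of the 33 tested interferon-stimulated genes, with TAC-HDAC4-NT above TAC-luciferase for each gene and filled points where the adjusted p was under 0.05. The differences run from -0.15 to 1.25 in TAC-HDAC4-NT and from -0.41 to 0.80 in TAC-luciferase; both share the sham hearts.

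Of the 18 calls against sham, 9 passed without each array in turn and under all other settings. They were Oasl2, Ifih1, Ifit3, Ddx58, Tap1 and Ifit1 for TAC-HDAC4-NT, and Oasl2, Irf7 and Ddx58 for TAC-luciferase. None of the 18 changed sign. The number of calls for TAC-HDAC4-NT against sham was 6 without its heart 1, 8 without its heart 3, 8 without sham heart 1, 7 without sham heart 2 and 22 without TAC-luciferase heart 1. Over all 12597 genes tested, 1326 were higher with every array, and 898, 962, 1120, 1123 and 1525 in these settings, in order. For TAC-luciferase against sham the number of calls was 8 without its heart 2, and 3 without sham heart 1 or sham heart 2. All genes higher there numbered 1405 with every array, and 1141, 1060 and 1148 in these settings. Without sham heart 2, Ifi35 was also called lower in TAC-HDAC4-NT (as were 1443 of all genes) and Cmpk2 lower in TAC-luciferase (1702 of all genes).

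The TAC-luciferase hearts differed from each other in these genes more than the hearts of the other groups did. The median SD of the 33 genes was 0.07 in TAC-HDAC4-NT, 0.22 in TAC-luciferase and 0.10 in sham hearts, where all genes had 0.06 in TAC-HDAC4-NT and 0.08 in both other groups. Relative to the sham mean, the median member stood at 0.32, 0.28 and 0.30 in the TAC-HDAC4-NT hearts. It stood at 0.36, 0.01 and 0.15 in TAC-luciferase hearts 1, 2 and 3, and at -0.01, -0.06 and 0.06 in the sham hearts. Heart 1 was thus level with the TAC-HDAC4-NT hearts and heart 2 with the sham hearts. Heart 1 was the highest of the TAC-luciferase hearts for 27 of the 33 genes (81.8%), against 41.5% of all genes. Heart 2 was the lowest for 27 of the 33, against 3971 of all 12597 genes tested. Heart 1 was the highest of all 9 hearts for 14 genes (42.4%), against 12.4% of all genes. Heart 1 exceeded the mean of hearts 2 and 3 by a median of 0.28, and by 2.27 for Igtp, 1.33 for Gbp2, 1.25 for Iigp1, 1.08 for Ifit3 and 0.77 for Rsad2. Only Trim25 (-0.66) and Oas2 (-0.18) ran the other way.

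**Figure D4:**
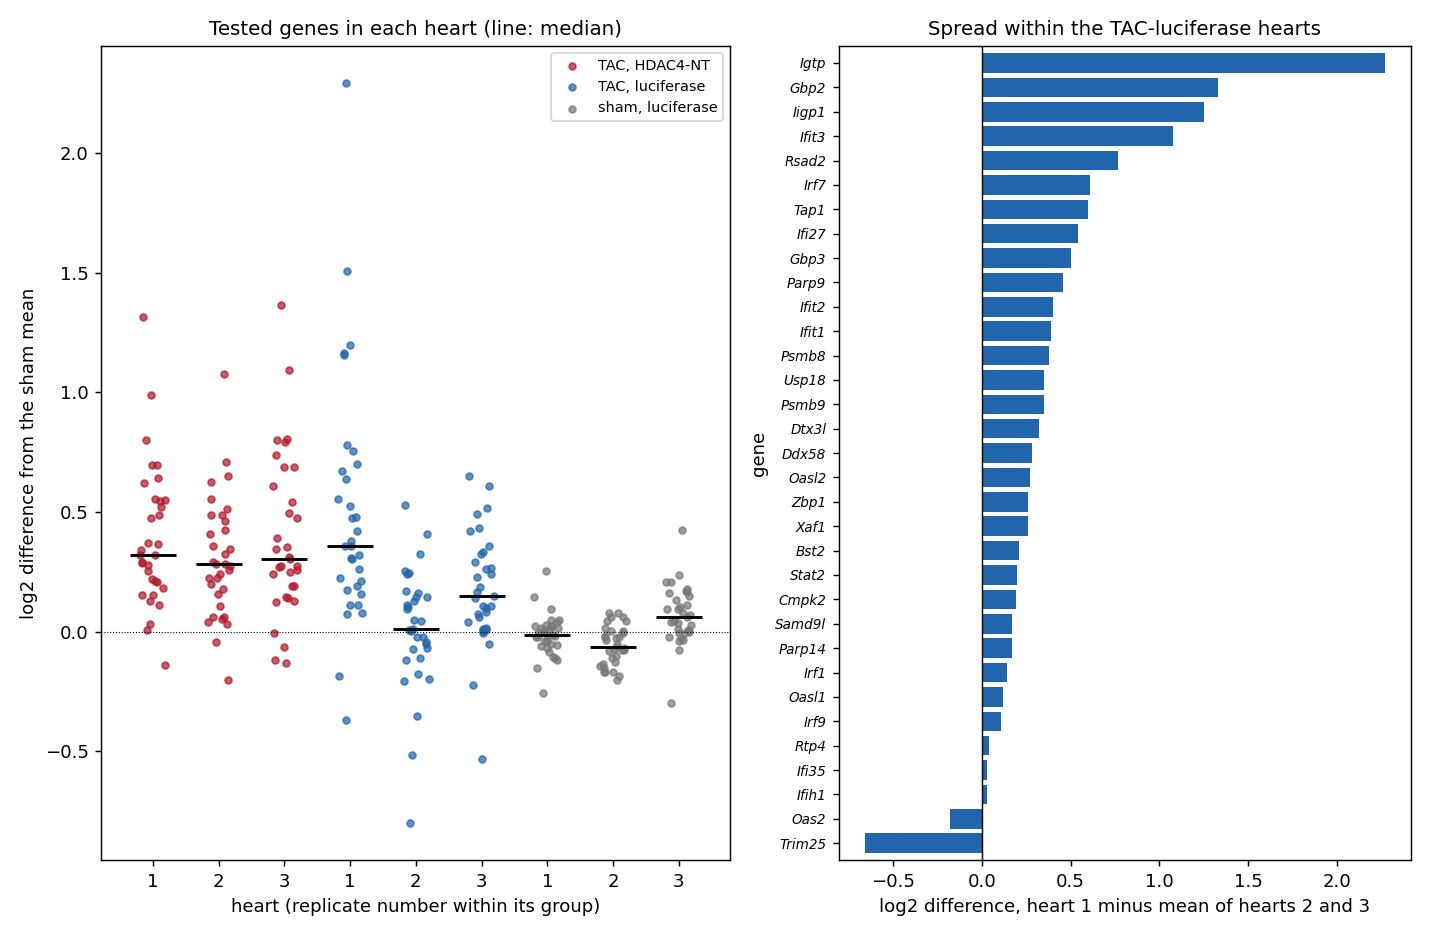
Left, the log2 difference of each tested interferon-stimulated gene from its sham mean, 1 column of points per heart with the median as a line; right, bars of TAC-luciferase heart 1 minus the mean of hearts 2 and 3 for each gene (log2). The medians on the left are 0.36, 0.01 and 0.15 in TAC-luciferase hearts 1, 2 and 3, and 31 of the 33 bars on the right are above 0.

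The comparison of the loaded groups followed this split. TAC-luciferase heart 2 was below all TAC-HDAC4-NT hearts for 28 of the 33 genes (84.8%), against 34.4% of all genes, and heart 3 for 24 (72.7%), against 36.1%. Heart 1 was below all of them for 6 genes (18.2%), against 31% of all genes, and above all of them for 16 (48.5%), against 32.3%. Heart 1 was high in most of these genes, so leaving it out lowers their TAC-luciferase means by that choice alone. The calls without it are therefore a description of the split and no separate test. Without heart 1, 8 members were higher in TAC-HDAC4-NT than in TAC-luciferase, when 2.38% of all genes were called higher and 3.15% lower. They were Rsad2 (1.15, adjusted p = 0.00119), Tap1 (0.51, adjusted p = 0.00119), Ifit3 (0.83, adjusted p = 0.00197), Gbp2 (0.86, adjusted p = 0.00703), Parp9 (0.30, adjusted p = 0.0145), Psmb9 (0.33, adjusted p = 0.0166), Gbp3 (0.46, adjusted p = 0.0238) and Iigp1 (0.72, adjusted p = 0.0328). Against sham, TAC-luciferase then had 6 members higher (18.2%), against 12.1% of all genes, and 1 lower (3.03%), against 13.6% of all genes. The lower one was Rsad2, at -0.66 (adjusted p = 0.00354).

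Heart 1 stood apart beyond these genes. Over all named genes it correlated at 0.994 to 0.995 with the TAC-HDAC4-NT hearts and at 0.991 with TAC-luciferase hearts 2 and 3, which correlated at 0.996 with each other and at 0.988 to 0.991 with the TAC-HDAC4-NT hearts. The submitters' sample codes start with 8 for heart 1 and with 9 for hearts 2 and 3, and what this number means is not given. The codes of the TAC-HDAC4-NT hearts split alike, with 3 for heart 1 and 4 for hearts 2 and 3. Those hearts correlated at 0.996 to 0.997 with each other. All sham codes start with 12. The labels give no date or batch.

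Levels of other cell types were set beside these genes, and their part in the results was not tested. The 6 cardiomyocyte markers read 12.77 to 14.11 on all arrays. Actc1 read 14.11, the highest value of the table, in every heart but sham heart 1. Myl3 fell by 0.21 with HDAC4-NT (adjusted p = 0.0141) and by 0.22 with luciferase (adjusted p = 0.00925). Myh6 fell by 0.23 with luciferase (adjusted p = 0.0271) and differed by -0.10 with HDAC4-NT. Lower calls were thus 1 of 6 with HDAC4-NT and 2 of 6 with luciferase, beside 12.3% and 14.9% of all genes. None was called higher or between the loaded groups. The mean level of the 11 macrophage and monocyte markers was 7.43 to 7.49 in TAC-HDAC4-NT, 7.49 to 7.60 in TAC-luciferase and 7.03 to 7.22 in sham hearts. Of these markers, 6 rose in TAC-HDAC4-NT and 5 in TAC-luciferase against sham, where 10.5% and 11.2% of all genes rose. Between the loaded groups 0.254% of all genes were called, and 14.3% had an unadjusted p under 0.05 in limma. Of the 11 markers 0 were called there, and 1 had such a p. That 1 was Cd14, at 5.63 to 5.67 in TAC-HDAC4-NT hearts, 5.73 in heart 1, 6.34 in heart 3 and a higher level still in heart 2 of TAC-luciferase, and 5.47 to 5.76 in sham hearts (TAC-HDAC4-NT minus TAC-luciferase -0.71). TAC-luciferase heart 2 was above all TAC-HDAC4-NT hearts for 5 of the 11 markers and below them all for 5, and heart 1 was above for 6 and below for 1. The 3 inflammatory monocyte markers with a probe set had means of 5.24 to 5.36 and were not tested. The mean of 6 neutrophil markers was 5.49, 5.62 and 5.45 in TAC-luciferase hearts 1, 2 and 3. It was 5.44 to 5.46 in TAC-HDAC4-NT and 5.41 to 5.46 in sham hearts. Only Csf3r of these was tested, with no call. Heart 2 of TAC-luciferase was above all TAC-HDAC4-NT hearts for 5 of the 6, against 29.7% of all genes. Of 11 lymphocyte markers with a probe set, 6 were never above the filter value and the mean level was 5.47 to 5.52 in TAC-HDAC4-NT, 5.48 to 5.62 in TAC-luciferase and 5.44 to 5.48 in sham hearts. The highest of these was TAC-luciferase heart 1. Its T cell markers Cd3e (6.52), Cd8a (5.91) and Cd8b1 (5.90) were each the highest of the 9 hearts, where the others read at most 6.15, 5.71 and 5.57. Cd8a and Cd8b1 lay near the filter value and were not tested, and Cd3e was not called. Cd3g was also highest in that heart, but stayed at 5.21 to 5.39 on all arrays. Cd3d stayed at 5.24 to 5.28, and Cd4 read 5.69 to 5.83 and was not highest in heart 1. Of 4 markers of plasmacytoid dendritic cells, which are known for producing type I interferon, Siglech and Ccr9 stayed at or below 5.40, while Tcf4 and Cox6a2 read 9.78 to 10.39 and 11.79 to 12.25. Tcf4 rose by 0.48 with HDAC4-NT (adjusted p = 0.00176) and by 0.28 with luciferase (adjusted p = 0.0209). Cox6a2, also a subunit of cytochrome oxidase in heart muscle, fell by 0.31 with HDAC4-NT (adjusted p = 0.0177) and by 0.29 with luciferase (adjusted p = 0.0225). The mean of 5 other dendritic cell markers was 5.65 to 5.68 in TAC-HDAC4-NT, 5.63 to 5.77 in TAC-luciferase and 5.60 to 5.65 in sham hearts. Of these only Zbtb46 was tested, with no call, and TAC-luciferase heart 1 was above all TAC-HDAC4-NT hearts for 5 of the 5. The mean of 7 endothelial markers was 9.05 to 9.11 in TAC-HDAC4-NT, 8.89 to 9.03 in TAC-luciferase and 8.97 to 9.10 in sham hearts, and lowest in TAC-luciferase heart 2. This mean joined genes that ran opposite ways. Between the loaded groups 4 of the 7 had an unadjusted p under 0.05 in limma, against 14.3% of all genes, and 0 were called. Their differences, TAC-HDAC4-NT minus TAC-luciferase, were 0.58 for Tek, 0.47 for Kdr, 0.28 for Tie1 and -1.02 for Cldn5. Kdr read 9.18, 9.15 and 9.23 in TAC-HDAC4-NT, 9.11, 8.34 and 8.69 in TAC-luciferase and 9.54, 9.43 and 9.23 in sham hearts. Among the TAC-luciferase hearts, Kdr, Tek, Tie1 and Egfl7 were highest in heart 1 and lowest in heart 2, the order of the medians of the interferon-stimulated genes. Cldn5 ran in the reverse order, at 7.78, 8.68 and 8.29. Pecam1 (9.46, 9.54 and 9.77) and Cdh5 (10.63, 10.86 and 10.85) were also lowest in heart 1. The mean of 6 fibroblast markers was 9.02 to 9.14 in TAC-HDAC4-NT, 8.84 to 9.02 in TAC-luciferase and 8.27 to 8.40 in sham hearts. Against sham, 3 of the 6 rose in both loaded groups, beside 10.5% of all genes with HDAC4-NT and 11.2% with luciferase. Among them was Col1a1, by 1.62 with HDAC4-NT (adjusted p = 1.06e-05) and by 1.44 with luciferase (adjusted p = 2e-05). Of the 6, 0 were called between the loaded groups (0 at an unadjusted p under 0.05 in limma). In TAC-luciferase hearts 1, 2 and 3 the fibroblast mean was 9.02, 8.84 and 8.98. The mean of 4 atrial markers was 5.98, 6.23 and 8.07 in these hearts. It was 5.94 to 6.94 in TAC-HDAC4-NT and 6.43 to 7.49 in sham hearts. For 3 erythroid markers with a probe set the mean was 6.32 to 7.18 in TAC-HDAC4-NT, 6.49 to 6.77 in TAC-luciferase and 6.78 to 7.01 in sham hearts. No atrial or erythroid marker was called in any comparison.

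Upstream genes of the pathway were counted from a second list, of which 38 of 40 had a probe set and 31 were tested. Of the 6 interferon genes, Ifnb1, Ifng, Ifna4, Ifnk and Ifne were never above the filter value, and Ifng read 5.39 to 5.49 on all arrays. Ifnl3 was tested and did not pass. Against sham, 4 of the 31 genes rose and 2 fell in TAC-HDAC4-NT, and 5 rose and 2 fell in TAC-luciferase, where all genes had the shares of 10.5% and 12.3% with HDAC4-NT and of 11.2% and 14.9% with luciferase. None differed between the loaded groups (7 at an unadjusted p under 0.05 in limma, 22.6%, against 14.3% of all genes). Ifngr1, the ligand-binding chain of the interferon gamma receptor, rose by 0.53 with HDAC4-NT (adjusted p = 0.0108) and by 0.42 with luciferase (adjusted p = 0.0271). Il10rb, shared by the receptors of interferon lambda and interleukin 10, fell by 0.32 with HDAC4-NT (adjusted p = 0.00117) and by 0.50 with luciferase (adjusted p = 0.000113). Stat3, which carries signals of interleukin 6 and its relatives, rose by 0.42 with HDAC4-NT (adjusted p = 0.00852) and by 0.52 with luciferase (adjusted p = 0.00265).

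Mavs, the mitochondrial adaptor through which Ddx58 and Ifih1 signal, moved opposite to these sensors. It read 9.76, 9.60 and 9.74 in TAC-HDAC4-NT hearts, 9.86, 9.70 and 9.65 in TAC-luciferase hearts and 10.15, 10.08 and 10.22 in sham hearts. Every TAC heart lay below every sham heart, and Mavs fell by 0.45 ± 0.07 with HDAC4-NT (adjusted p = 0.00205) and by 0.41 ± 0.07 with luciferase (adjusted p = 0.00302). Sting1, the adaptor of cytosolic DNA sensing (Tmem173 in the annotation), read 7.41, 7.42 and 7.60 in TAC-HDAC4-NT hearts, 7.59, 8.32 and 7.78 in TAC-luciferase hearts and 6.92, 6.82 and 7.12 in sham hearts. It rose by 0.94 ± 0.17 with luciferase (adjusted p = 0.00322), and its difference with HDAC4-NT was 0.52 (adjusted p = 0.0508). Among TAC-luciferase hearts Sting1 was highest in heart 2, the heart with the lowest interferon-stimulated genes. Irf8, a factor of myeloid cells, rose by 0.32 with luciferase (adjusted p = 0.0093) and differed by 0.15 with HDAC4-NT (adjusted p = 0.18). Of the negative regulators, the phosphatase Ptpn11 rose by 0.31 with HDAC4-NT (adjusted p = 0.0225) and by 0.26 with luciferase (adjusted p = 0.0369). Adar, which edits double-stranded RNA, rose by 0.17 with HDAC4-NT (adjusted p = 0.0243) and differed by 0.02 with luciferase. Socs3, an inhibitor of Janus kinase signalling, read 6.08, 6.22 and 6.18 in TAC-HDAC4-NT hearts, 6.16, 8.14 and 6.74 in TAC-luciferase hearts and 6.02, 6.12 and 6.00 in sham hearts. It too was high in TAC-luciferase hearts 2 and 3, and its difference with luciferase was 0.97 ± 0.39 (adjusted p = 0.101).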

How the data were processed

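Per the labels' protocols, whole-heart RNA was extracted with Trizol and prepared as biotinylated cRNA for Affymetrix arrays. Per the submitters' processing notes, RMA gave the deposited log2 values. RMA version, probe set definitions and genome build were not given in the sources used here. All 9 arrays had identical sorted values, as quantile normalization leaves them, and RMA compresses low values, so changes of weak genes are understated. Of 21225 probe sets, 20239 had 1 gene symbol in the platform annotation, each gene with 1 probe set, and 986 were not listed.

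Groups came from the sample labels. The labels give separate animals. A single model over all 9 arrays was fitted with limma 3.58.1 under R 4.3.3, by lmFit, contrasts.fit and eBayes. Residual degrees of freedom were 6 and prior ones 3.23. Genes were tested where at least 3 of 9 arrays exceeded 5.66, the 40th percentile of the table, which kept 12597 and removed 7642. A call is a Benjamini-Hochberg adjusted p under 0.05 over all genes tested. The median standard error of a log2 difference was 0.07. Precision is limited by the number of arrays. The script was tested on simulated data.

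Members, role groups, pathway and marker lists were chosen with earlier results of these data known. Values on every heart are given for members that passed in any comparison and, in role groups with fewer than 2 of these, for those with the highest mean level until 2 are given. Cmpk2, Igtp and Gbp2 were added after their values were seen. Pathway genes past the threshold are named, and Socs3, Ifnl3, Ifng and the markers given by value were added after the values were seen. Promoter windows are RefSeq's (GRCm38.p6), and those printed hold the response element core and belong to members that passed, at most 6. Other settings were no filter, a 60th percentile filter, a trended and robust prior, cyclic loess, array weights, only the groups compared, 2 kinds of block, an adjusted p under 0.10, and each array left out. TAC-luciferase hearts 2 and 3 left out together was added after seeing the data. Plots were made in Python 3.11.15 with matplotlib 3.10.9.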

Additional observations from a re-analysis of the deposited data

How the results depend on the processing

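With 3 hearts a group, counts of interferon-stimulated genes past the threshold moved more than their median differences. Leaving out each array in turn, the number higher in TAC-HDAC4-NT against TAC-luciferase ran from 0 to 8, in TAC-HDAC4-NT against sham from 6 to 22 and in TAC-luciferase against sham from 3 to 8. Over all genes, those higher ran from 0 to 300, from 898 to 1525 and from 1060 to 1519, in the same order. With every array they numbered 18, 1326 and 1405. The number of members lower ran from 0 to 1 in both comparisons with sham and stayed 0 between the loaded groups. The median ran from 0.04 to 0.21 between the loaded groups, from 0.29 to 0.33 for TAC-HDAC4-NT against sham and from 0.10 to 0.28 for TAC-luciferase against sham. With an adjusted p under 0.10, 1 gene (Rsad2) was higher between the loaded groups. In TAC-luciferase against sham, 10 were higher and 1 lower at that threshold, at which all genes were not counted. With array weights 2 members were higher between the loaded groups (442 of all genes). In TAC-luciferase against sham 3 were then higher (1384) and 1 lower (1724). With only the groups compared, 22 were higher in TAC-HDAC4-NT against sham (1496 of all genes) and 3 in TAC-luciferase against sham (1097). The number that opens the sample code was also taken as a random block. In TAC-luciferase against sham, 8 members were then higher (1724 of all genes) and 1 lower (2264). Without TAC-luciferase hearts 2 and 3, 16 were higher in TAC-luciferase against sham (48.5%, against 7.41% of all genes), whose median was 0.36, and the median between the loaded groups was -0.08. That setting was chosen after heart 1 was seen to be high in these genes, so its direction was fixed by the choice, and the lone heart is assumed to vary like the other groups. Leaving out TAC-luciferase heart 1, or that whole group, keeps each difference of TAC-HDAC4-NT from sham as it was (median 0.31). Those settings change only the shared estimate of spread, its degrees of freedom and the p-values that follow. The cause of the other shifts was not tested. No filter, the stricter filter, the trended and robust prior and cyclic loess left all these counts within 1.5 times. Over all genes, calls between the loaded groups numbered 32 with the settings of the report, 0 with only these groups, 10 with no filter, 103 with the stricter filter, 75 with the trended and robust prior, 106 with the replicate block, 177 with the random block, 827 with array weights and 697 without TAC-luciferase heart 1. Replicate numbers did not pair the hearts: same-numbered hearts correlated at -0.12 to 0.20 in their deviations, with 2 of 9 pairs over 0.1, and in 6 of 18 checks a heart was closest to its own number. With the replicate block, 0 members were called between the loaded groups, and 13 were higher in TAC-HDAC4-NT against sham (1260 of all genes). In TAC-luciferase against sham, 6 were then higher (1345 of all genes) and 1 lower (1717).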
